A study of Mus musculus with 9 samples.

Results

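The 10 core autophagy genes Ulk1, Becn1, Atg5, Atg7, Atg12, Map1lc3a, Map1lc3b, Gabarap, Gabarapl1 and Sqstm1 were followed in medullary thymic epithelial cells with intact, silenced or deleted C2TA. They were found by their symbols in the annotation column of the deposited array table, each had 1 probe set, and together they are 10 of the 19604 genes measured. Total RNA came from CD80+ medullary epithelial cells of female Balb/c mice aged 4 to 6 weeks, and 9 arrays form 3 groups of 3, namely C2TA wild type (arrays 1 to 3), C2TA knockdown (arrays 4 to 6) and C2TA knockout (arrays 7 to 9). C2TA, the product of Ciita, switches on MHC class II genes. The labels call the arrays of a group biological replicates and name no construct, no promoter behind the silencing and no number of mice per array. The p-values cover only the differences among these arrays.

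Macroautophagy encloses cytoplasm in a double membrane, the autophagosome, which then fuses with lysosomes. The ULK1 kinase starts the process, the Beclin 1 complex marks the growing membrane with a phosphoinositide, and a pair of ubiquitin-like conjugation systems, ATG12 on ATG5 and the ATG8 proteins on phosphatidylethanolamine, expand it. In mouse thymic epithelium autophagosomes are frequent even without starvation, and autophagy is known there as a route by which a cell's own proteins reach MHC class II molecules. The arrays measure mRNA, whereas LC3 lipidation and the turnover of p62, the usual readouts of autophagic activity, happen on proteins.

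The promoter table of RefSeq (mouse build GRCm38.p6, from 250 bases before to 50 bases after a listed start) held a window for 7 of the 10 genes. The E-box CACGTG, a palindrome that reads alike on both strands and is the core of the motif bound by TFEB, the regulator of lysosomal and autophagy genes, was present in 2 of these 7 windows and in 7.15% of all 32851 windows. They are shown because they are the only core autophagy promoters among the 7 with this core, for setting beside the levels of Atg5, Atg7 and Tfeb. The E-box is in capitals, the strand is + for both, and the stretches lie at chr10:44268295-44268360 for Atg5 and chr6:114670934-114670999 for Atg7.
Atg5: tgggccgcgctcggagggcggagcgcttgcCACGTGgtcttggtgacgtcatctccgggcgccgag
Atg7: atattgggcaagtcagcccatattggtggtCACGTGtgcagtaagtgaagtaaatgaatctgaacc
The longer palindrome of the CLEAR element, which contains this core, was in 0 of the 7 windows and in 0.326% of all windows. A match is a description of these letters and not a binding site. TGACNNNGC, the core of the element bound by NRF2, was searched on both strands. It was found in the window of Map1lc3b, in no other of the 7 windows, and in 12.4% of all windows. Bases outside the windows were not searched, so elements further from the start of Sqstm1, an NRF2 target gene, were not covered.

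A pair of libraries stood apart from the rest and touched most of these genes. The interquartile range of the log2 values was 2.20 on wild type 1 and 2.37 on knockout 7, against 2.53 to 2.80 on the other 7 arrays. The 10 genes lie above the median level of the table, and over all such genes the median deviation from the gene's mean was -0.24 on wild type 1 and -0.11 on knockout 7. The log2 level of Ciita was 6.40 ± 0.14 (SD, n = 3) for wild type, 5.29 ± 0.30 for the knockdown arrays and 6.07 ± 0.10 for the knockout arrays, so the knockout was closer to wild type than the knockdown was. Where its probe set lies relative to the deleted part is not known here, so it does not check the knockout label. H2-Aa, a class II chain that depends on C2TA, had 10.62 ± 0.45, 9.18 ± 0.12 and 6.12 ± 0.22. In the knockdown the change was -1.11 (SE 0.16) for Ciita and -1.44 (SE 0.21) for H2-Aa, each with a limma adjusted p of 0.055. Neither thus passed the threshold of 0.05 in the knockdown, which limits what a missed threshold means there. In the knockout H2-Aa had -4.50 (SE 0.21), with a limma adjusted p of 2.26e-05. Among epithelial markers, Aire lay at means of 9.85, 11.40 and 9.77 in wild type, knockdown and knockout and Epcam at 9.07, 9.03 and 8.94. Ccl22 lay at 7.52, 6.245 and 6.76, with a change of -1.27 (SE 0.25) in the knockdown and a limma adjusted p of 0.243. Of the 12 mature medullary markers, 4 had a higher mean in the knockdown than in wild type, beside 52.4% of all genes. In the knockout 5 of 12 had, beside 51.8%. The cortical marker Psmb11 lay at 2.91, 3.07 and 2.88. Of the other cortical markers, Ly75 lay at 6.73, 6.22 and 6.81 and Krt8 at 10.225, 10.17 and 10.10. Of the 6 measured cortical markers, 1 had a higher mean in the knockdown than in wild type, beside 52.4% of all genes, and 5 a lower one. The counts were the same in the knockout, beside 51.8% with a higher mean. The median changes were -0.13 and -0.087, and 0 of 6 were called in either comparison. Deposited values give no call of presence, so no marker can be called absent.

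None of the 10 core autophagy genes changed past the threshold when C2TA was silenced or deleted. The largest difference was in Atg12, whose mean was 1.30-fold lower in the knockdown and 1.24-fold lower in the knockout, and every other difference from wild type was at most 1.21-fold. The linear model over all 9 arrays (limma, Benjamini-Hochberg adjusted over 19604 genes) called 0 of 10 in knockdown against wild type, where it called 0.0663% of all genes, with adjusted p-values from 0.782 to 0.996. It called 0 of 10 in knockout against wild type, where it called 0.0459% of all genes, and 0 of 10 in knockdown against knockout, where it called 0.0408%, and in both every adjusted p of the 10 rounded to 1. A limma F test over the 3 groups called 0 of 10 as well, against 0.0918% of all genes. At an unadjusted limma p under 0.05 the count was 1 of 10 for the knockdown and 1 of 10 for the knockout, Atg12 in both, where 5.24% and 3.34% of all genes passed. The count was 0 of 10 between knockdown and knockout, where 5.04% passed. In bulk RNA, fewer cells that express a gene and less RNA per cell cannot be told apart.

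These counts come with a 95% interval for the change of each gene in each comparison, taken singly and not jointly. Values repeated over arrays, as for Atg7 and Gabarap, can make an interval too narrow. All 10 genes had 95% intervals within 1 log2 unit of 0, a 2.0-fold change, in each of the 3 comparisons. The lowest lower end was -0.68 (Atg12) in the knockdown and -0.62 (Atg12) in the knockout. The highest upper end was 0.76 (Atg5) in the knockdown and 0.58 (Atg5) in the knockout. The widest single interval was that of Becn1, from -0.33 to 0.69 in the knockdown and from -0.47 to 0.55 in the knockout. Changes within these intervals could have been missed with 3 arrays a group, and a missed threshold does not show equal levels. The 2 comparisons with wild type share its 3 arrays. The median change of the 10 was 0.066 in the knockdown beside 0.0096 over all genes, and -0.002 in the knockout beside 0.0075. Between knockdown and knockout it was 0.093 beside 0.00043. In the knockdown 8 of 10 had a higher mean than in wild type, beside 52.4% of all genes, and in the knockout 5 of 10, beside 51.8%. Against the knockout, 6 of 10 were higher in the knockdown, beside 50.1%. Without wild type 1 and knockout 7 the medians were -0.012, -0.10 and 0.003, so the small positive median of the knockdown was not kept.

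**Figure D1:**
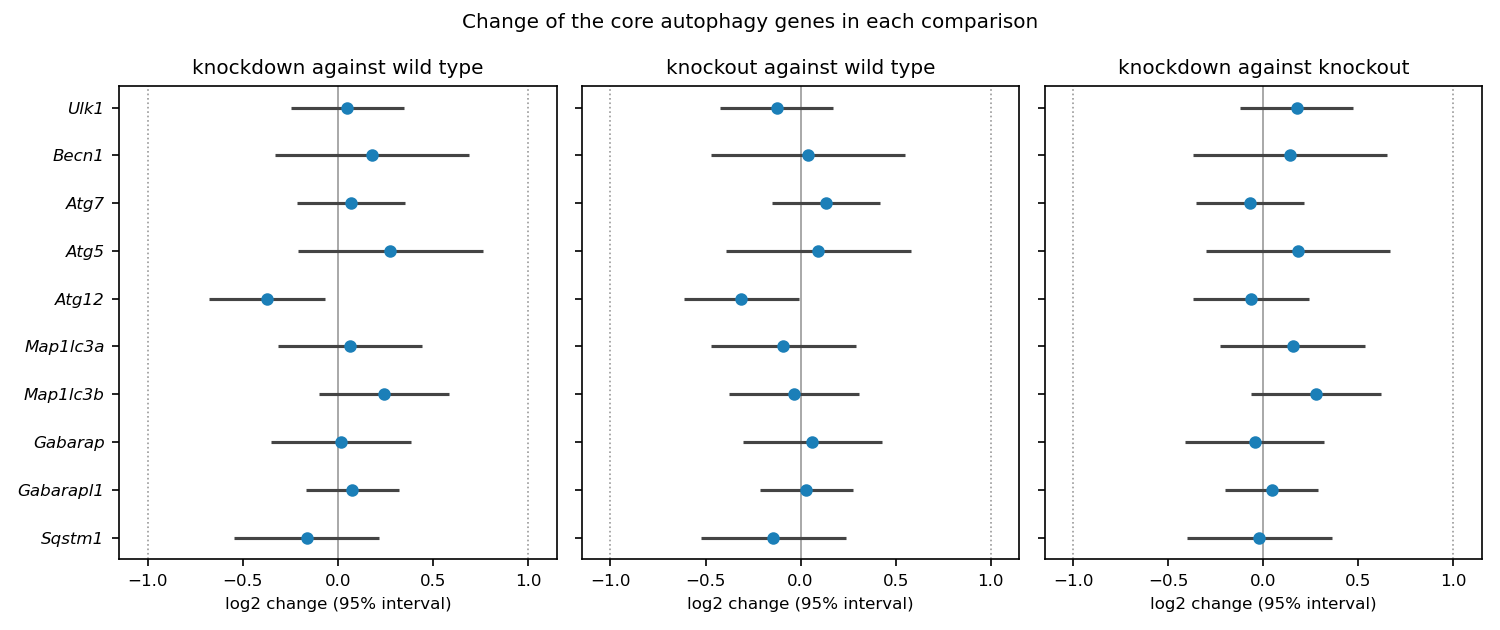
Log2 change (points) with 95% interval (lines) of the 10 genes in each comparison from the limma fit. All intervals lie between the dotted lines at 1 log2 unit on either side of 0, and in the knockdown the interval of Atg12 (-0.68 to -0.070) does not cover 0.

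Ulk1 encodes the kinase that starts autophagosome formation. Its log2 level was 5.24, 5.23 and 5.23 on wild type arrays 1 to 3, 5.35, 5.39 and 5.12 on knockdown arrays 4 to 6, and 5.23, 4.86 and 5.23 on knockout arrays 7 to 9. The 3 groups overlapped, and the lowest value was that of knockout 8. Its change was 0.049 (SE 0.13) in the knockdown and -0.13 (SE 0.13) in the knockout, with limma adjusted p-values of 0.986 and 1. The change in the knockout came from knockout 8, without which it was -0.0011 (SE 0.12). The same value stood on 4 of the 9 arrays. Median polish, the summary step of RMA, can give several arrays one value, so an SD as small as the 0.002 of wild type is not a measure of the spread between mice.

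Becn1 encodes Beclin 1, the regulatory subunit of the class III phosphoinositide 3-kinase of autophagy. Its level was 6.13, 7.003 and 6.93 in wild type, 6.86, 6.87 and 6.87 in the knockdown, and 6.40, 6.91 and 6.87 in the knockout. Wild type 1 and knockout 7 were low, and the other 7 arrays lay within 0.14 of each other. The change was 0.18 (SE 0.23) in the knockdown, with a limma adjusted p of 0.983, and 0.040 (SE 0.23) in the knockout. Without wild type 1 and knockout 7 these became -0.099 (SE 0.071) and -0.075 (SE 0.078), with limma adjusted p-values of 0.636 and 0.917.

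Atg7 encodes the E1-like enzyme that activates both ATG12 and the ATG8 proteins. Its level was 5.14, 5.44 and 5.54 in wild type, 5.44 on each knockdown array, and 5.64, 5.44 and 5.44 in the knockout. The same value stood on 6 of the 9 arrays, wild type 1 was the lowest and knockout 7 the highest. The change was 0.068 (SE 0.13) in the knockdown and 0.14 (SE 0.13) in the knockout, both past no threshold (limma adjusted p of 0.983 and 1), and without the same pair of arrays both were -0.051.

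Atg5 encodes the acceptor of ATG12, and the conjugate acts as an E3-like enzyme on the ATG8 proteins. Its level was 4.603, 5.39 and 5.31 in wild type, 5.45, 5.34 and 5.34 in the knockdown, and 4.92, 5.51 and 5.16 in the knockout. Wild type 1 was lowest and knockout 7 next, and the groups overlapped. The change of 0.28 (SE 0.22) in the knockdown was the highest of the 10 genes, with a limma adjusted p of 0.983, and it fell to 0.027 (SE 0.16) without wild type 1. In the knockout it was 0.094 (SE 0.22) with all arrays and -0.16 (SE 0.16) without wild type 1.

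Atg12 encodes the ubiquitin-like protein that is joined to ATG5. Its level was 6.07, 6.18 and 5.85 in wild type, 5.65, 5.61 and 5.73 in the knockdown, and 5.49, 5.88 and 5.81 in the knockout. All 3 knockdown arrays lay below all 3 wild type arrays, a separation in this direction that 3.46% of all genes showed, while knockout 8 lay above wild type 3. No core gene had all knockout arrays above or all below wild type, as 2.55% and 2.29% of all genes had. The change in the knockdown was -0.37 (SE 0.14), lower in 3 of 3 arrays, with an unadjusted limma p of 0.021 and an adjusted p of 0.782. In the knockout it was -0.31 (SE 0.14), with an unadjusted limma p of 0.0462 and an adjusted p of 1. The 19 alternative settings gave between -0.47 and -0.27 in the knockdown, with limma adjusted p-values from 0.277 to 1, and between -0.40 and -0.14 in the knockout. Atg12 thus had a negative change against wild type under all settings run and passed under none. The knockdown against the knockout had a difference of -0.064 (SE 0.14).

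The 4 ATG8 genes encode the ubiquitin-like proteins that coat the autophagosome. Map1lc3a and Map1lc3b encode LC3A and LC3B, and Gabarap and Gabarapl1 encode the other subfamily. Map1lc3a had levels of 6.16, 5.597 and 5.89 in wild type, 5.96, 6.00 and 5.88 in the knockdown, and 5.50, 5.93 and 5.95 in the knockout. Unlike Becn1 and Atg5, it was highest on wild type 1, and it was lowest on knockout 7. The changes were 0.064 (SE 0.17) and -0.091 (SE 0.17) against wild type, with limma adjusted p-values of 0.986 and 1.

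Map1lc3b had levels of 6.26, 6.82 and 6.71 in wild type, 6.98, 6.71 and 6.82 in the knockdown, and 6.48, 6.61 and 6.59 in the knockout. Wild type overlapped both other groups. All 3 knockdown arrays lay above all 3 knockout arrays, as was the case in this direction for 5.38% of all genes. That difference was 0.28 (SE 0.15, 1.21-fold), with an unadjusted limma p of 0.102 and an adjusted p of 1, and it stayed between 0.20 and 0.34 over the 19 alternatives. Against wild type the changes were 0.24 (SE 0.15) in the knockdown and -0.034 (SE 0.15) in the knockout. Without wild type 1 these changes against wild type were 0.076 (SE 0.11) and -0.20 (SE 0.11).

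Gabarap had levels of 8.66, 9.37 and 9.11 in wild type, 9.11, 8.97 and 9.11 in the knockdown, and 9.11 on all 3 knockout arrays. Wild type 1 and 2 were the lowest and the highest arrays, and 1 value was shared by 5 arrays. Its changes were 0.016 (SE 0.16) and 0.062 (SE 0.16), with limma adjusted p-values of 0.996 and 1, and both turned negative, to -0.18 and -0.13 (SE 0.11 each), without wild type 1. Gabarapl1 had levels of 5.31, 5.20 and 4.99 in wild type, 5.28, 5.20 and 5.25 in the knockdown, and 5.20, 5.20 and 5.18 in the knockout. It varied least of the 10 genes, over 0.32 log2 units on the 9 arrays, and 10.8% of all genes had a smaller residual SD. Its changes were 0.075 (SE 0.11) and 0.030 (SE 0.11).

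Sqstm1 encodes p62, the receptor that carries ubiquitinated cargo to the autophagosome and is itself degraded there. Its level was 7.87, 8.41 and 8.18 in wild type, 7.96, 8.10 and 7.92 in the knockdown, and 7.74, 8.04 and 8.26 in the knockout. The groups overlapped, with knockout 7 lowest and wild type 2 highest. Its change was -0.16 (SE 0.17) in the knockdown and -0.14 (SE 0.17) in the knockout, with limma adjusted p-values of 0.983 and 1. Both changes depended on single arrays. Without wild type 1 they were -0.31 (SE 0.16) and -0.29 (SE 0.16), with limma adjusted p-values of 0.671 and 0.769, and without wild type 2 they were -0.035 (SE 0.17) and -0.014 (SE 0.17). Without knockout 7 the change in the knockout was -0.0055 (SE 0.17).

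**Figure D2:**
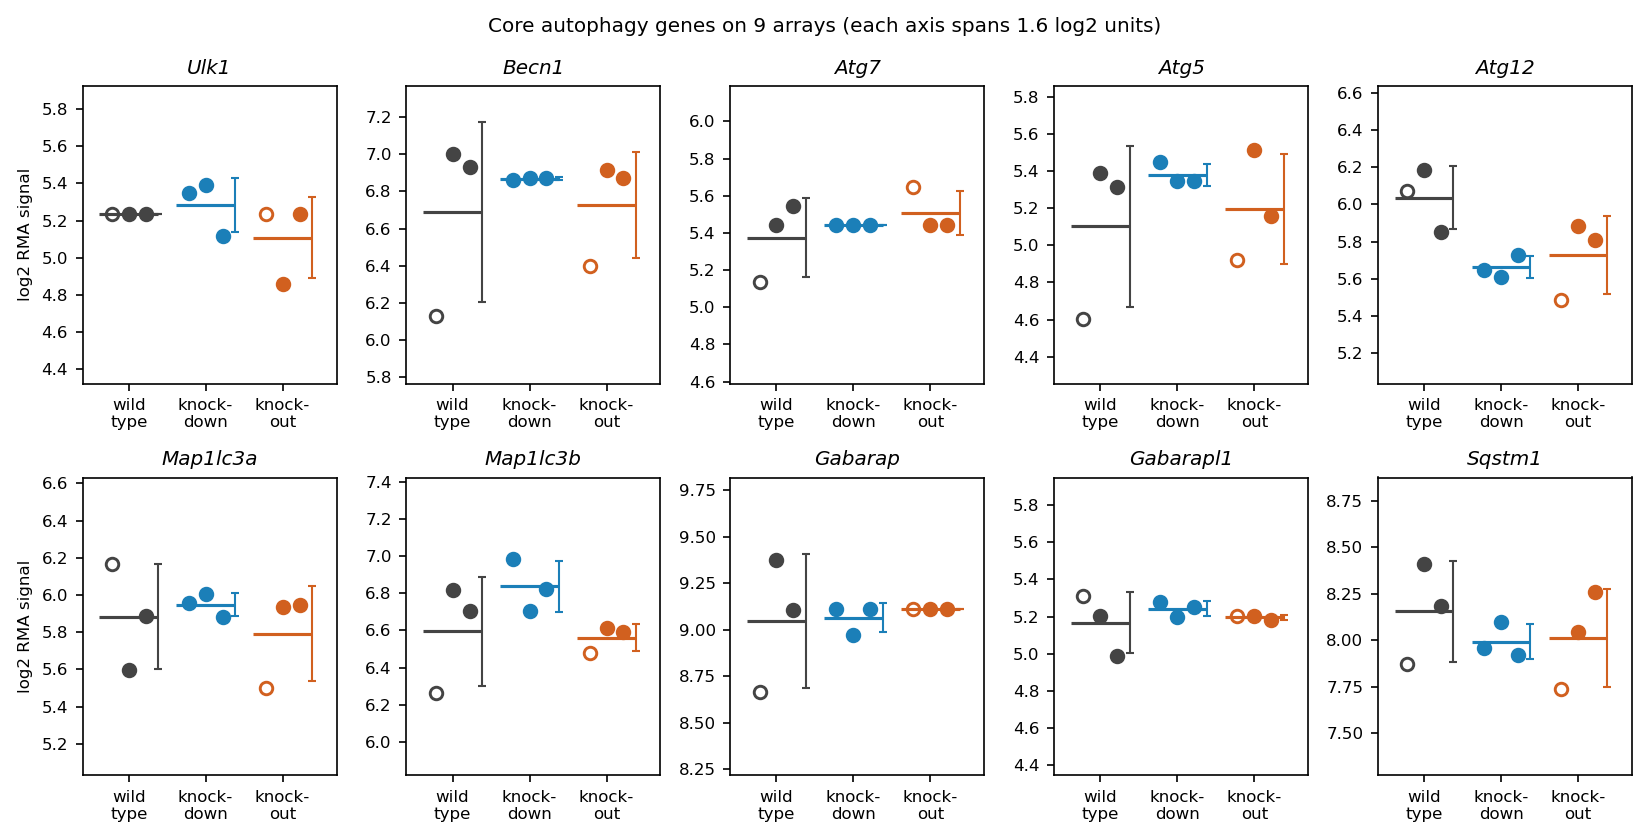
Log2 RMA signal of each gene on every array, with a line at the group mean and a bar of 1 SD (n = 3), and open symbols for wild type 1 and knockout 7. All vertical axes span the same number of log2 units, so spreads can be compared between panels. Atg12 is the gene whose 3 knockdown arrays all lie below wild type.

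The order of the group means differed from gene to gene. The knockdown had the highest mean for Ulk1, Becn1, Atg5, Map1lc3a, Map1lc3b and Gabarapl1, the knockout for Atg7 and Gabarap, and wild type for Atg12 and Sqstm1. The intervals of the differences between neighbouring groups covered 0 for all of these but Atg12, where the interval covered 0 between knockdown and knockout and not between either and wild type (-0.68 to -0.070 and -0.62 to -0.0064).

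The spread of the 10 genes within a group differed between the groups. The within-group SD was largest in wild type for 8 of the 10 genes and in the knockout for the other 2. Its median over the 10 genes was 0.28 for wild type, 0.061 for the knockdown and 0.21 for the knockout, beside medians of 0.21, 0.115 and 0.16 over all genes. Wild type 1 lay below all 7 arrays other than itself and knockout 7 for 6 of the 10 genes (Atg5, Atg7, Becn1, Map1lc3b, Sqstm1 and Gabarap) and above them for Map1lc3a and Gabarapl1. Of the 9802 genes above the median level, 55.6% lay below those 7 arrays on wild type 1 and 8.62% above. Knockout 7 lay below them for 6 of the 10 (Atg5, Atg12, Becn1, Map1lc3a, Map1lc3b and Sqstm1), beside 42.8% of the genes above the median level. It lay above them for 1 of the 10 (Atg7), beside 6.18%.

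The median deviation of the 10 genes was -0.24 on wild type 1 and -0.25 on knockout 7, beside -0.24 and -0.11 over genes above the median level. On the other 7 arrays it lay between 0.012 and 0.16. After a repeated quantile normalization, the distance of wild type 1 from the mean of those 7 arrays went from -0.77 to -0.38 for Becn1, from -0.49 to -0.090 for Map1lc3b and from -0.47 to -0.002 for Gabarap. For Atg5 it went from -0.755 to -0.64. For other genes it grew, from 0.26 to 0.64 for Atg12, from 0.28 to 0.645 for Map1lc3a, from 0.12 to 0.385 for Gabarapl1 and from 0.035 to 0.27 for Ulk1. For Sqstm1 it turned from -0.25 to 0.17, and for Atg7 it went from -0.32 to -0.090. The labels give neither RNA quality nor the number of cells behind an array.

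**Figure D3:**
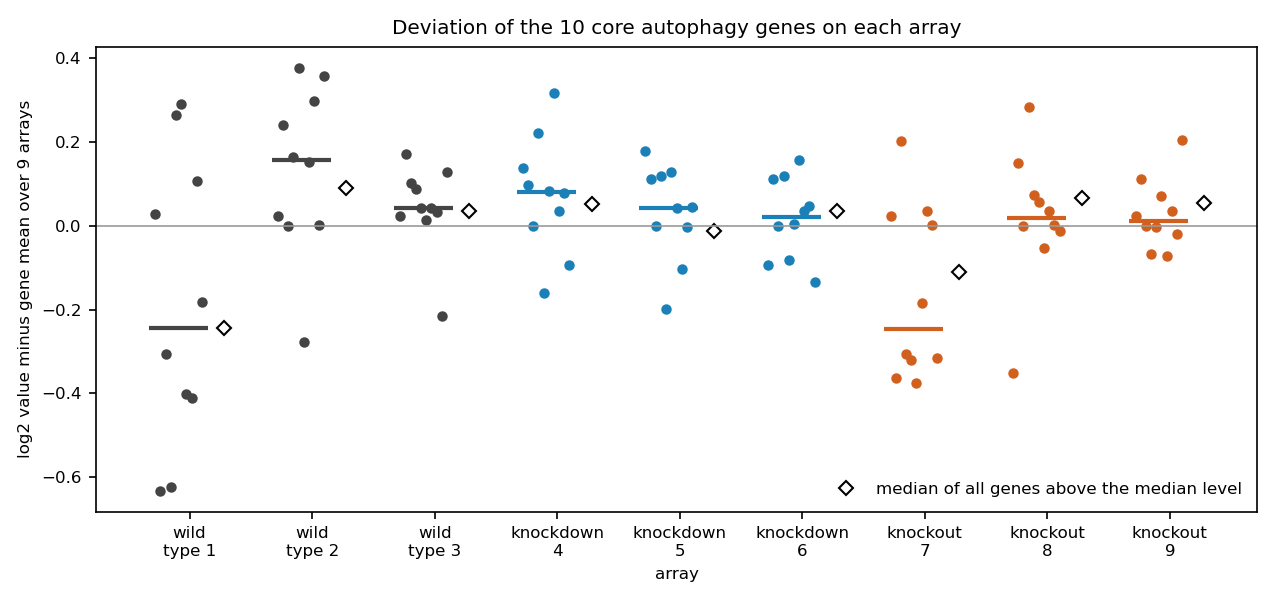
Log2 value minus the gene's mean over 9 arrays for the 10 genes (points, with a line at their median) on each array, and the median over all genes above the median level (diamonds). The medians of the 10 genes are lowest on wild type 1 (-0.24) and knockout 7 (-0.25) and lie between 0.012 and 0.16 on the other arrays.

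Becn1 and Atg5 varied most over the 9 arrays, with SDs of 0.29 each. By the root-mean-square difference of log2 values centred on each gene's own mean over the 9 arrays, the 3 genes most like Becn1 among all genes were Msrb1 (0.034), Rnf214 (0.050) and Gfm2 (0.052). Those most like Atg5 were Fbh1 (0.049), Prmt3 (0.054) and Ttc4 (0.062). The likeness covers the low values on wild type 1 and knockout 7, which these genes share with much of the table.

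Beyond the core genes, the measured part of the wider autophagy lists gave the same count. Atg13, Atg101, Atg14, Rubcn, Epg5 and Zkscan3 were not measured. Of 72 further genes in 8 lists from initiation to lysosomal fusion and regulation, 66 were measured, and limma called 0 of 66 in either direction in each of the 3 comparisons. At an unadjusted limma p under 0.05 the count was 2 of 66 for the knockdown, 0 for the knockout and 1 between them. Of all genes, 5.24%, 3.34% and 5.04% passed. Their median changes were 0.053, -0.027 and 0.074, beside 0.0096, 0.0075 and 0.00043 over all genes. In the knockdown 6 of 66 had all arrays above wild type, beside 4.79% of all genes, and 0 of 66 had all below, beside 3.46%. In the knockout 1 of 66 had all arrays above wild type and 1 of 66 all below, beside 2.55% and 2.29%. Between knockdown and knockout 6 of 66 had all knockdown arrays higher, beside 5.38%, and 2 of 66 had all lower, beside 4.22%.

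Upstream, the other measured genes of the ULK1 list were Ulk2, the paralog of Ulk1, and Rb1cc1, and 0 of 2 was called. Ulk2 had 0.18 (SE 0.11) in the knockdown against the knockout, and 0.10 without knockdown 6. Of 7 measured genes around Beclin 1, 0 were called, and Pik3r4, which encodes the p150 subunit of the kinase complex, had the smallest p, with 0.26 (SE 0.14) between the same groups, and 0.13 without knockout 7. Of 9 genes of the ATG9, ATG2 and WIPI group, which supply and mark membrane, 0 were called. Atg9b had 4.68 on each wild type array, 5.02, 4.79 and 5.05 in the knockdown, and 4.63, 4.68 and 4.68 in the knockout. All 3 of its knockdown arrays were above the other 6. Of all genes, 4.79% had all knockdown arrays above wild type and 5.38% had all above the knockout. The difference of Atg9b from the knockout was 0.29 (SE 0.10), with an unadjusted limma p of 0.0205 and an adjusted p of 0.747.

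Of the 8 other genes of the conjugation systems, 0 were called, with median changes of 0.045 in the knockdown and -0.11 in the knockout. Atg16l1, the scaffold that binds the ATG12 and ATG5 conjugate, lay at 5.04, 5.46 and 5.46 in wild type, 5.55, 5.65 and 5.73 in the knockdown, and 5.43, 5.58 and 5.23 in the knockout. Its knockdown arrays were all above wild type, as for 4.79% of all genes. The change was 0.32 (SE 0.15), with an unadjusted limma p of 0.054 and an adjusted p of 0.952. Without wild type 1 the change was 0.18 (SE 0.12). Gabarapl2, the remaining ATG8 gene, had 6.24, 7.79 and 7.72 in wild type and between 7.10 and 7.68 on the other arrays. Its wild type SD of 0.88 rests on wild type 1, and so does the sign of its change in the knockdown, which was 0.34 (SE 0.36) with all arrays and -0.17 (SE 0.15) without wild type 1.

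Among the 10 receptors and adaptors other than Sqstm1, 0 were called. Wdfy3, which encodes the scaffold ALFY, had 0.27 (SE 0.14) in the knockdown against the knockout, with a limma adjusted p of 1, and 0.14 without knockdown 4. Of 14 fusion genes 0 were called, and Rab7, the GTPase of late endosomes, had -0.29 (SE 0.15) in the same comparison. Of 15 regulators 0 were called. Ddit4, a stress-induced inhibitor of mTORC1, had 0.38 (SE 0.17) in the knockdown, with an unadjusted limma p of 0.0445 and an adjusted p of 0.922, and Tfeb itself had 0.025 (SE 0.13) and 0.082 (SE 0.13) in the knockdown and knockout.

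The NRF2 target list, set beside Sqstm1, had 0 of 10 genes called in each comparison, with median changes of 0.042 in the knockdown and -0.001 in the knockout. Txnrd1, which encodes a thioredoxin reductase, had 0.31 (SE 0.15) in the knockout, with all 3 arrays above wild type and a limma adjusted p of 1, and 0.13 (SE 0.086) without wild type 1. All knockout arrays lay above wild type for 2.55% of all genes. The MHC class II list gave a contrast within the same fit, with 3 of 8 genes called lower in the knockdown (0.0204% of all genes were), 8 of 8 lower in the knockout (0.0408%) and medians of -1.465 and -2.34. That contrast was known before these lists were drawn and is given as a scale for the autophagy values.

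**Figure D4:**
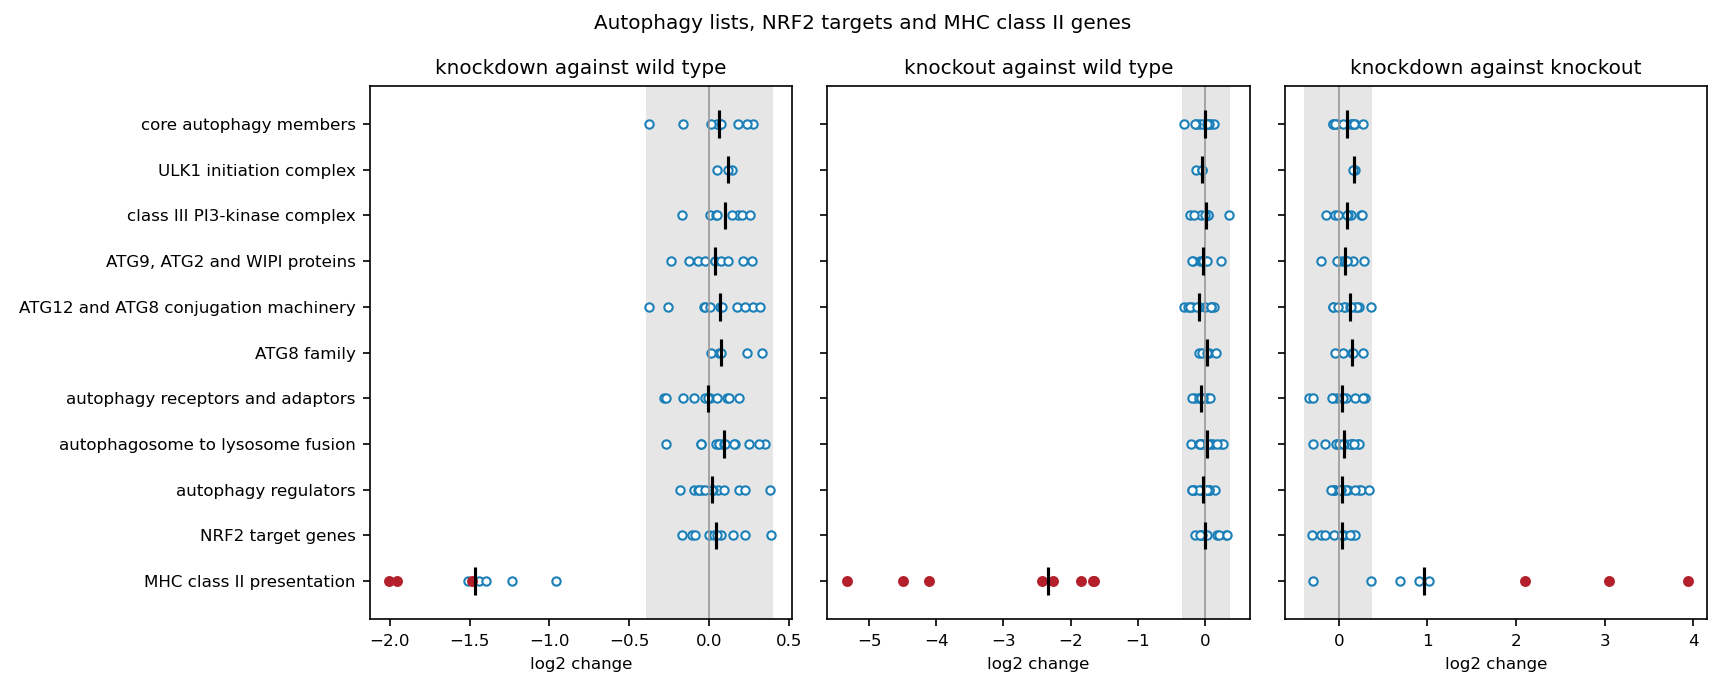
Log2 change of each measured gene of the autophagy lists, the NRF2 targets and the MHC class II genes in the 3 comparisons, with filled symbols for genes called by limma, a bar at the list's median and a grey band for the central 95% of all genes. No autophagy gene is filled, whereas the 8 class II genes are all filled and below the band in the knockout. Horizontal scales differ between panels.

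Marker genes of other cell types gave the following sums on the same arrays. The summed log2 level of 9 thymocyte markers ran from 42.8 to 45.3 on wild type arrays, 42.1 to 45.2 on knockdown arrays and 43.5 to 53.2 on knockout arrays, and 0 of 9 were called. In the knockout 9 of 9 had a higher mean than in wild type, beside 51.8% of all genes, with a median change of 0.568. There 4 of 9 had an unadjusted limma p under 0.05, beside 3.34%. In the knockdown 2 of 9 had a higher mean, beside 52.4%. For 12 dendritic cell and macrophage markers it ran from 57.9 to 58.2, 54.6 to 56.0 and 56.6 to 61.3, and 0 of 12 were called. In the knockdown 1 of 12 had a higher mean than in wild type, beside 52.4%, and 4 of 12 had all arrays below it, beside 3.46%. In the knockout these counts were 8 of 12, beside 51.8%, and 0 of 12, beside 2.29%. For 9 fibroblast and endothelial markers the sums were 42.5 to 43.1, 40.5 to 41.5 and 42.3 to 43.7, and for 6 B cell markers 22.6 to 23.9, 22.3 to 24.0 and 22.5 to 23.0, again with 0 called. For 6 cortical epithelial markers they were 32.1 to 33.4, 31.6 to 31.9 and 32.1 to 32.8, with 0 called. The 12 mature medullary markers ran from 91.6 to 98.7, 94.8 to 95.5 and 93.1 to 96.8, of which Aire was called higher in the knockdown. Of all genes, 0.0663% were called in the knockdown, 0.0459% in the knockout and 0.0408% between them. The part of these markers in the autophagy values was not tested.

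In the authors' deposited table, the SAM q-value, in percent, was 81.7 for Atg12, 102.4 for Ulk1, Atg5 and Map1lc3b, and 114.1 for the other 6 genes. The table does not state which groups it compares.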

How the data were processed

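The log2 values were made by the authors with RMA, per the submitters' processing notes and the file headers. RMA corrects background, normalizes between arrays and summarises probes by median polish. The deposited intensity values equal 2 to the power of the log2 values and were not tested separately. The q-value in percent is a score of the authors' deposited table. A second deposited copy of the log2 values was identical on all 35552 probe sets. The software version and genome build were not given in the sources used here.

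Of the probe sets, 21536 carry a gene symbol. Symbols were updated through the RefSeq gene table of GRCm38.p6 (15192 by accession, 3738 by symbol, 1247 by synonym, 1359 kept), and the probe set with the highest mean stood for each of the 933 genes with several. limma 3.58.1 in R 4.3.3 (lmFit, eBayes) fitted 1 model over all 9 arrays, with 6 residual degrees of freedom, two-sided p-values and Benjamini-Hochberg adjustment over 19604 genes at 0.05. The fit was tested on simulated data for knockdown against wild type. It called 11.9% of 67 genes set 0.5 log2 units apart, 64.2% of 67 set 1 apart and 97% of 66 set 2 apart. It also called 11 genes that had been left equal. Genes of low level stayed in. With 3 arrays a group, an exact permutation p is at least 0.1, and the number of arrays limits precision.

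The members and lists were chosen with earlier results of these data known. All 10 core genes are named, and so are Ciita and H2-Aa as a check of the labels. From each of the 8 wider autophagy lists and the NRF2 list, the non-members past the threshold, or else the 1 with the smallest p, are named. Tfeb, Rb1cc1, Bnip3 and the epithelial markers were named beyond that rule, after their values were seen. For the 2 core genes with the largest SD, the 3 most alike genes are named. Alternatives were a repeated quantile normalization, median centring, 2 filters on level, an intensity trend, array weights, fits of 2 groups alone, averaging or separating the probe sets of a gene, and omission of arrays. Omission of arrays for named genes other than the 10 was added after the data were seen.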

Additional observations from a re-analysis of the deposited data

How the results depend on the processing

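The count of core autophagy genes called was 0 in each comparison under all 19 alternatives. Of 570 changes of single genes under an alternative, 522 kept their direction and their side of the threshold, 3 became exactly 0 (Atg7 and Gabarap in knockdown minus knockout), 45 turned sign and 0 passed, and the smallest adjusted p was 0.277. The changes that turned sign, all log2, were as follows. With array weights the knockdown minus wild type was -0.061 for Atg7, -0.054 for Becn1 and -0.079 for Gabarap, and the knockout minus wild type was -0.0066 for Atg5, -0.039 for Atg7, -0.080 for Becn1, 0.071 for Map1lc3a and -0.051 for Gabarap. Without both wild type 1 and knockout 7 the knockdown gave -0.051 for Atg7, -0.099 for Becn1 and -0.176 for Gabarap, the knockout gave -0.017 for Atg5, -0.051 for Atg7, -0.075 for Becn1, 0.197 for Map1lc3a and -0.131 for Gabarap, and knockdown minus knockout was -0.024 for Becn1. Repeated quantile normalization gave -0.014 for Map1lc3a, -0.0067 for Ulk1 and -0.016 for Gabarap in the knockdown, and -0.023 for Gabarapl1 in the knockout. With 1 array left out at a time, the knockdown ranged from -0.051 to 0.153 for Atg7, -0.099 to 0.337 for Becn1, -0.080 to 0.204 for Map1lc3a, -0.0027 to 0.133 for Ulk1, -0.176 to 0.179 for Gabarap and -0.014 to 0.147 for Gabarapl1. The knockout ranged from -0.156 to 0.238 for Atg5, -0.240 to 0.204 for Becn1, -0.234 to 0.057 for Map1lc3a, -0.200 to 0.077 for Map1lc3b, -0.131 to 0.225 for Gabarap and -0.060 to 0.101 for Gabarapl1. Knockdown minus knockout ranged from -0.183 to 0.015 for Atg12, -0.024 to 0.232 for Becn1 and -0.158 to 0.103 for Sqstm1. The cause was not tested. Of the wider autophagy genes, 1 was called under 1 alternative, Bnip3, a mitophagy receptor, with -0.56 (SE 0.11, limma adjusted p = 0.0404) in the knockdown with array weights, chosen after its values were seen. Over all genes the knockdown count of 13 became 246 with array weights, 48 without wild type 1, 48 with quantile normalization, 5 without knockdown 6 and 2 in a fit of 2 groups alone. The count for knockdown against knockout went from 8 to 256 with array weights, 38 without wild type 1, 38 with quantile normalization, 67 without both arrays, and 5 when any of knockdown 4, knockdown 6 and knockout 7 was omitted. For the knockout the number went from 9 to 39 with array weights and 4 in a fit of 2 groups alone, and the F test from 18 to 313 with array weights and 10 without wild type 3, so the background shares move with these settings. With 1 array left out, an alternative chosen after seeing the data, Gabarapl2 in the knockdown ranged from -0.169 to 0.606. No paired analysis was possible because the groups share no replicate number.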
